A study of Mus musculus with 8 samples.

Results

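Titin, obscurin-like 1 and the myomesins are encoded in the mouse by the 5 genes Ttn, Obsl1, Myom1, Myom2 and Myom3. They were taken by symbol from a table of raw read counts for 24516 genes, and all 5 passed the filter on low counts that left 15075 genes for testing. The table came from bulk RNA sequencing of mouse hearts at postnatal day 40, after CRISPR/Cas9 deletion of a conserved enhancer of Actn2, the gene of the cardiac Z-disc crosslinker alpha-actinin 2. There were 3 hearts homozygous for the deletion, 3 heterozygous hearts and 2 wild-type hearts. The design text states that the reads of both wild-type libraries were lost, so that their counts alone remain. The hearts shared a litter, per the labels, and total RNA was extracted with Trizol. The deletion was made in the germline, so every cell type of the heart carried it. The sources used here do not give the strain or the number of founder lines. Whole hearts hold many cell types, and fewer cells of a type cannot be told apart from less RNA per cell. The p-values below measure the spread between these 8 libraries.

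Titin is the giant elastic protein of striated muscle. A single molecule runs from the Z-disc, through the extensible I-band and along the myosin filaments of the A-band, to the M-band in the middle of the sarcomere. There the myomesins crosslink myosin filaments and bind the end of titin, and obscurin-like 1 binds both. All of these proteins are built mainly from immunoglobulin and fibronectin type III domains. In the heart the length of the titin spring, set by alternative splicing, is known for its part in passive stiffness, and truncating variants of human TTN are known for dilated cardiomyopathy.

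The promoters of Ttn and Obsl1 are shown because these 2 genes passed the threshold of a test. That of Myom1 is shown because its 6 deletion libraries all lay above wild type, as did those of 22.1% of tested genes. RefSeq (GRCm38.p6) gave promoters for 4 of the 5 genes, each from 250 bases before to 50 bases after the start; Myom2 had no entry. The windows are chr2:76982498-76982797 on the minus strand for Ttn, chr1:75506403-75506702 on the minus strand for Obsl1 and chr17:71019307-71019606 on the plus strand for Myom1. The Myom1 window lies inside the gene as GENCODE annotates it, since that annotation also holds transcripts that start farther upstream. Capitals mark matches, on either strand, to 3 patterns. These are a loose pattern for the binding core of the muscle factor MEF2 (CTA and TAG with any 4 bases between), the TATA box (TATAAA) and the M-CAT element of muscle promoters (CATTCC).
Ttn: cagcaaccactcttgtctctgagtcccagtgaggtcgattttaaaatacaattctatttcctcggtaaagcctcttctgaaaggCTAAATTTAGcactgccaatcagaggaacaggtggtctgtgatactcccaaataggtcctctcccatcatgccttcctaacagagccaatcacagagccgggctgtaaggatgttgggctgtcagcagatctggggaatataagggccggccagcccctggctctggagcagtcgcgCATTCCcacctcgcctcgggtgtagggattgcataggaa
Obsl1: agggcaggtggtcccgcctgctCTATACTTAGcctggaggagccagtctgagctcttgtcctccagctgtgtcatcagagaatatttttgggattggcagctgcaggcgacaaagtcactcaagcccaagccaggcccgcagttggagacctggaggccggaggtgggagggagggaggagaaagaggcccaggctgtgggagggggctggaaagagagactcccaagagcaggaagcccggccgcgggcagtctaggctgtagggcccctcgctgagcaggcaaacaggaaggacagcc
Myom1: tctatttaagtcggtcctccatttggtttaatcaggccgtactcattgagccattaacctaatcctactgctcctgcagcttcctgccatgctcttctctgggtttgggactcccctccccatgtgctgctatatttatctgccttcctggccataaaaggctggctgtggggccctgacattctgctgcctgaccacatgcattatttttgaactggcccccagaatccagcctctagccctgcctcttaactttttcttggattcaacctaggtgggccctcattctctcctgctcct
The 4 bases between CTA and TAG are AATT in the Ttn match and TACT in the Obsl1 match. The loose MEF2 pattern was present once in Ttn, with its first base at position -166 from the start, and once in Obsl1, at position -228. It was absent from the windows of Myom1 and Myom3, and 3.70% of 27025 promoters of the same length held it. Ttn also held 1 M-CAT element, at position 12, which 14.6% of promoters held. None of the 4 windows held a TATA box in these letters, which 14.2% of promoters did. The E-box (CANNTG) was found once in Ttn, 4 times in Obsl1, 3 times in Myom1 and once in Myom3, and 72.1% of promoters held it. Each window also held the CArG-like pattern (CC and GG set 6 bases apart), which 73.0% of promoters held, and GATAA occurred once in Myom1, against 25.8% of promoters. Matches to different motifs may overlap, and a match is a description of these letters.

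Libraries held 33197075 to 55902737 counts in homozygous hearts, 22230090 to 31247412 in heterozygous hearts and 25017723 and 30568468 in wild-type hearts. Wild type 2 stood apart from all other libraries. Across genes it correlated with the deletion libraries at r = 0.927 to 0.935 and with wild type 1 at 0.952, against 0.969 to 0.982 between pairs of deletion libraries. Xist and Y-linked counts showed female and male hearts in each genotype. Levels are given as CPM, counts scaled to a library of 1e6, after TMM scaling, which adjusts library sizes for composition, and fold changes are on the log2 scale. A gene is called where its adjusted p was below 0.05 in edgeR's quasi-likelihood test. By this rule 27.7% of tested genes were called in homozygous against wild-type hearts (15.3% higher and 12.4% lower). In heterozygous against wild-type hearts 28.0% were called (15.2% higher and 12.8% lower). Without wild type 2, 2135 genes were called in homozygous hearts (4180 with it) and 2359 in heterozygous hearts (4219 with it). Actn2 had 2115, 1611 and 1791 CPM in homozygous hearts, 1693, 1546 and 1638 CPM in heterozygous hearts, and 2187 and 2703 CPM in wild-type hearts. Its fold change was -0.41 (SE 0.16, adjusted p = 0.0771) in homozygous and -0.59 (SE 0.16, adjusted p = 0.0193) in heterozygous hearts against wild type. The heterozygous call was lost without wild type 2 (-0.40, adjusted p = 0.128) and with the 3-property offset, a correction for GC content and for the lengths of transcript and 3' UTR (-0.28, adjusted p = 0.221), and the homozygous values were then -0.22 and -0.09.

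Ttn was the only one of the 5 genes called in both deletion genotypes, and it was higher in each. The gene (ENSMUSG00000051747.14) lies at chr2:76703980-76982547 on the minus strand of mm10. Its longest annotated coding transcript has 106824 bases in 347 exons, of which 105639 are coding. Ttn had 9298, 10205 and 10491 CPM in homozygous hearts, 9154, 9601 and 9878 CPM in heterozygous hearts, and 5197 and 6056 CPM in wild-type hearts. All 6 deletion libraries lay above both wild-type libraries, with a wide gap, as did those of 22.1% of all tested genes. The means were 9998 ± 623 CPM in homozygous hearts, 9544 ± 365 CPM in heterozygous hearts (SD, n = 3 each) and 5627 ± 607 CPM in wild-type hearts (SD, n = 2). The mean was thus 1.78 times the wild-type mean in homozygous hearts and 1.70 times in heterozygous hearts. The log2 fold change was 0.83 (SE 0.14, 95% interval 0.51 to 1.15, adjusted p = 0.00276) in homozygous and 0.76 (SE 0.14, 0.45 to 1.08, adjusted p = 0.00372) in heterozygous hearts against wild type. Ttn was among the most abundant transcripts of every heart. It ranked 5, 4 and 4 by counts in homozygous libraries, 4 in each heterozygous library, and 13 and 12 in wild-type libraries. Leaving out any one library kept the call in both genotypes, with fold changes of 0.73 to 0.98 in homozygous and 0.66 to 0.91 in heterozygous hearts. They were 0.98 and 0.91 without wild type 2. Counts per symbol do not separate titin isoforms, so the long and short cardiac springs were not told apart. An annotated antisense gene, Gm13938, overlaps 0.388% of the merged Ttn exons, and the strand setting of the counting is not given in the sources used here.

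**Figure D1:**
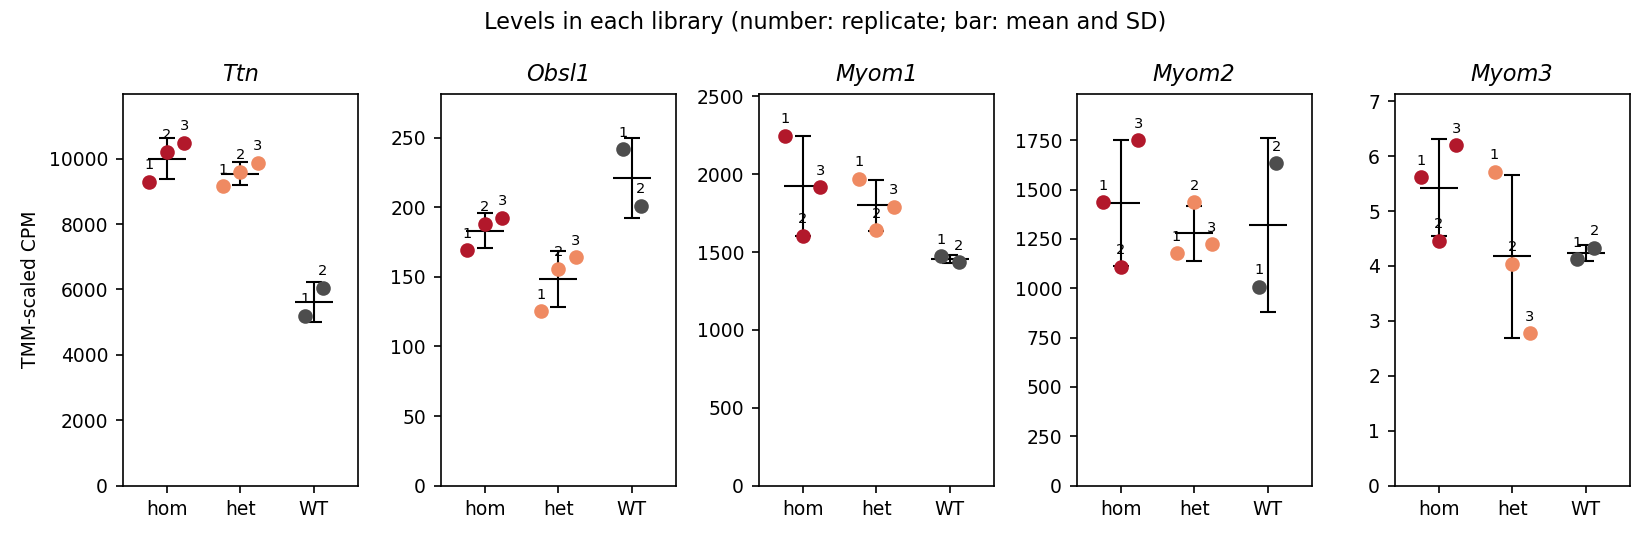
Level of each gene (TMM-scaled CPM, vertical axes from 0) in homozygous (hom), heterozygous (het) and wild-type (WT) hearts; points are libraries with their replicate number, and bars the mean and SD. The 6 deletion libraries of Ttn (9154 to 10491 CPM) lie above both wild-type libraries, those of Obsl1 (126 to 192 CPM) below them, and the groups of Myom2 and Myom3 overlap.

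Fold changes against wild type increased with transcript length over all genes, and Ttn is nearly the longest gene tested. Among tested genes only D10Wsu102e, with 123179 bases, had a longer annotated transcript. Length here is that of the longest coding transcript, or of the longest transcript of a noncoding gene. Across 14698 genes with an annotated length, the Spearman correlation of log2 length with the fold change was 0.41 in homozygous and 0.38 in heterozygous hearts, each set against wild type, and it was 0.05 between the deletion genotypes. The points of these correlations share libraries, and GC content correlated with the same fold changes at -0.42 and -0.46. Between the 2 wild-type libraries, the difference of wild type 2 minus wild type 1 correlated with length at -0.21. By length class, the median fold change in homozygous hearts was -0.58 below 1000 bases, -0.36 from 1000 to 2000, -0.07 from 2000 to 4000, 0.24 from 4000 to 8000 and 0.57 from 8000 to 15000 bases. In heterozygous hearts these medians were -0.52, -0.34, -0.08, 0.22 and 0.55. Among the 56 genes of 15000 bases or more, 25 were called higher and 1 lower in homozygous hearts, with a median of 0.55. In heterozygous hearts 28 were called higher and 1 lower, with a median of 0.59. Ttn, at 0.83 and 0.76, thus stood above the median of the genes of its length class in both genotypes.

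Other genes with giant transcripts did not all move alike. Syne1, the nuclear envelope spectrin-repeat protein nesprin 1 (27908 bases), had fold changes of 0.27 (adjusted p = 0.189) and 0.19 (adjusted p = 0.374) in homozygous and heterozygous hearts. Ryr2, which releases calcium in cardiomyocytes (16814 bases), was higher by 1.12 (adjusted p = 0.00133) and 1.20 (adjusted p = 0.000896). Dst and Macf1, which link cytoskeletal filaments, were also higher in both genotypes, by 0.81 and 0.77 for Dst and by 0.68 and 0.68 for Macf1. The long noncoding RNA Neat1 was the 1 gene of this class called lower in homozygous hearts (-1.20, adjusted p = 0.0476), and it was lower in heterozygous hearts too (-1.58, adjusted p = 0.0165). These genes were chosen for their names after their values were seen.

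**Figure D2:**
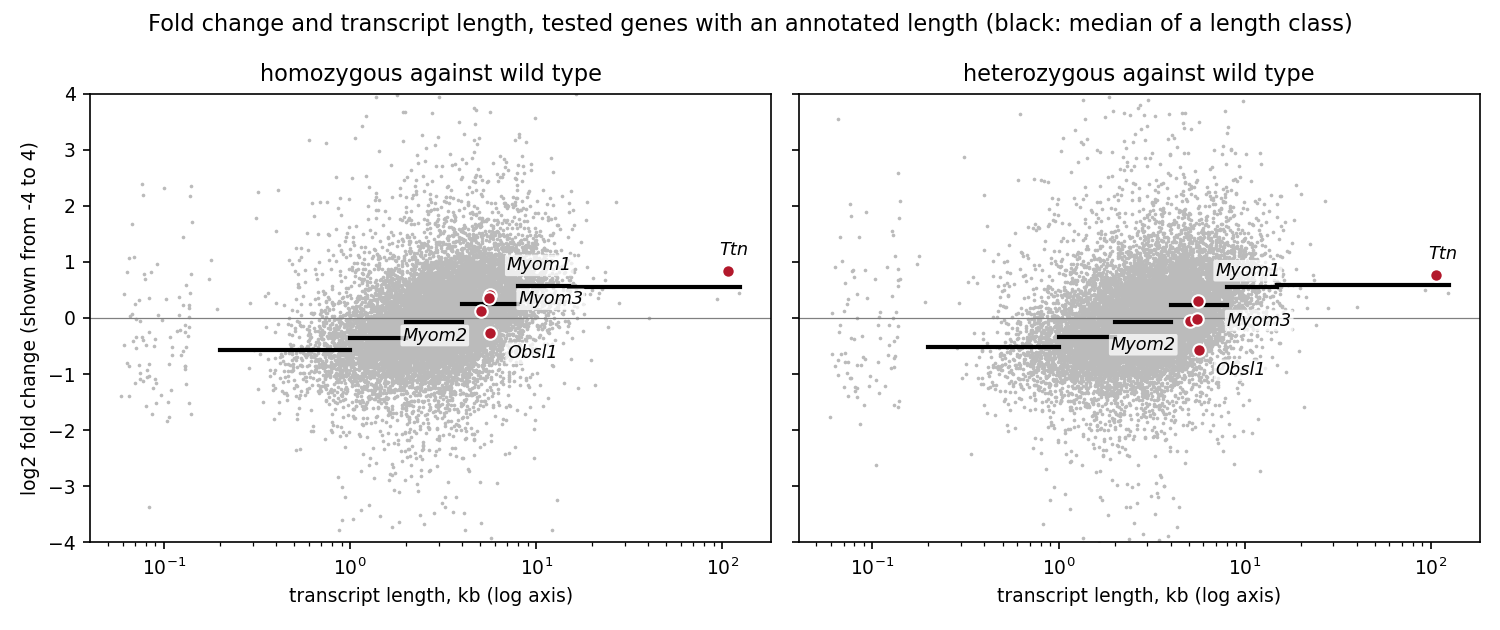
Log2 fold change against wild type (vertical axis, which cuts off a few extreme genes) and transcript length in kb (log axis) for tested genes with an annotated length, homozygous left and heterozygous right; black bars are medians of a length class. The medians step up with length to 0.57 and 0.55 between 8 and 15 kb, Ttn lies at the far right, and Obsl1 lies below the median of its class.

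Offsets for gene properties were then put into the same fit. In each library, the departure of a gene's log2 CPM from its mean over libraries was modelled by splines of transcript length, or of length, 3' UTR length and GC content together, and that share was taken out. The length offset took 0.85 out of the Ttn fold change of homozygous hearts and 1.16 out of that of heterozygous hearts. What remained was -0.02 (adjusted p = 0.953) in homozygous and -0.40 (adjusted p = 0.149) in heterozygous hearts. The 3-property offset took out 0.65 and 0.91, and 0.18 (adjusted p = 0.362) and -0.14 (adjusted p = 0.485) remained. Neither offset left Ttn called in either genotype. With the 3-property offset Ttn stood at 9657, 8692 and 10298 CPM in homozygous hearts, 8179, 7479 and 7255 CPM in heterozygous hearts, and 8122 and 8731 CPM in wild-type hearts. The 3 genotypes were thus much closer, and wild-type hearts overlapped with both homozygous and heterozygous hearts. Homozygous and heterozygous hearts did not overlap with each other. The splines rest on few genes at the length of Ttn. Fitted without Ttn, they left -0.02 and -0.45 with length alone, and 0.22 and -0.17 with 3 properties, in homozygous and heterozygous hearts. The share of the Ttn difference that goes with transcript length cannot be told apart here from one that goes with genotype.

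**Figure D3:**
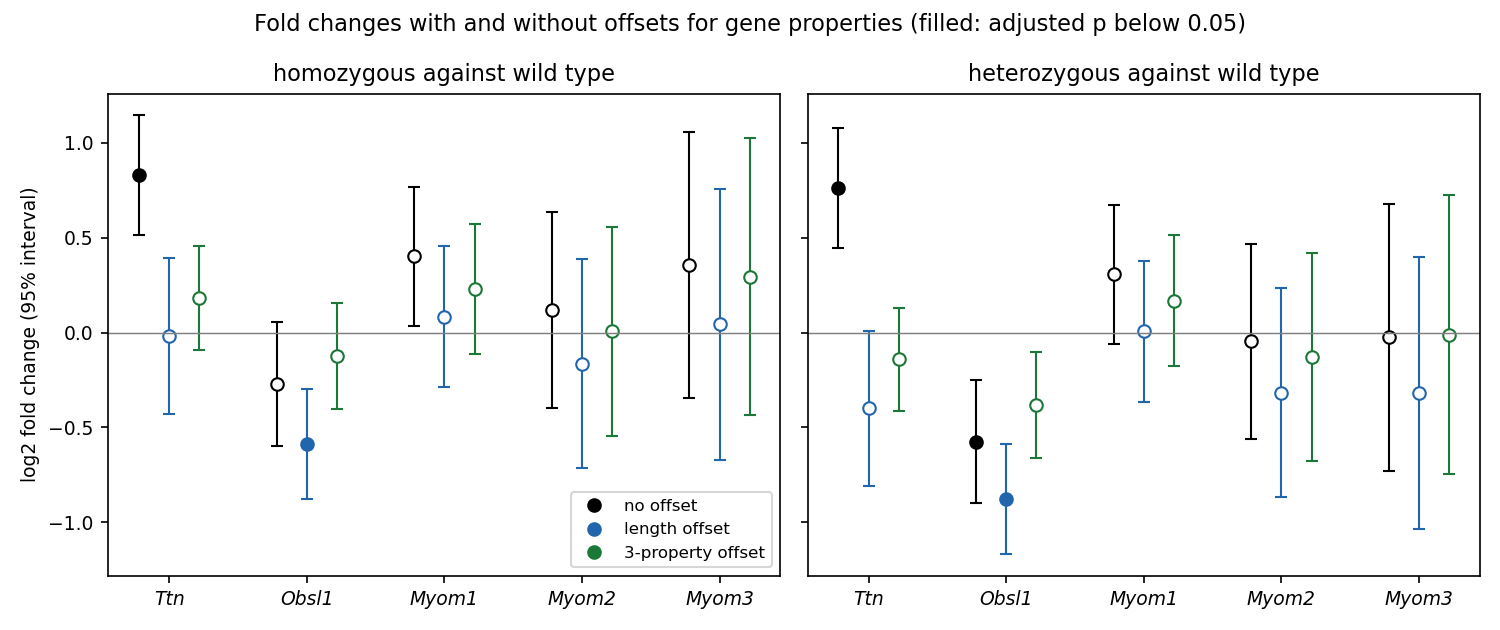
Log2 fold change with its 95% interval (vertical axis) of each gene against wild type with no offset (black), the length offset (blue) and the 3-property offset (green), homozygous left and heterozygous right; filled points are called. Ttn is called with no offset (0.83 and 0.76) and with neither offset, while the point for Obsl1 lies below 0 in every setting shown.

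Obsl1 was lower in heterozygous hearts, and its lower level in homozygous hearts did not pass the test. Obscurin-like 1 binds titin and myomesin at the M-band and also serves, with Cul7 and Ccdc8, in the growth-related 3M complex. The gene (ENSMUSG00000026211.17) lies at chr1:75479310-75506452 on the minus strand, and its longest coding transcript has 5679 bases in 20 exons and a GC content of 62.5%. Obsl1 had 169, 188 and 192 CPM in homozygous hearts, 126, 156 and 164 CPM in heterozygous hearts, and 242 and 201 CPM in wild-type hearts. All 6 deletion libraries lay below both wild-type libraries, as did those of 20.7% of tested genes, though the gap between homozygous 3 and wild type 2 was narrow. The means were 183 ± 12.4 CPM in homozygous and 149 ± 20.4 CPM in heterozygous hearts (SD, n = 3 each), and 221 ± 28.6 CPM in wild-type hearts (SD, n = 2). The fold change was -0.27 (SE 0.15, 95% interval -0.60 to 0.06, adjusted p = 0.196) in homozygous and -0.58 (SE 0.15, -0.90 to -0.25, adjusted p = 0.0157) in heterozygous hearts. The heterozygous call was lost without wild type 1, the higher of the 2 wild-type libraries (-0.43, adjusted p = 0.0542), and held without wild type 2 (-0.67, adjusted p = 0.0158).

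The direction of Obsl1 went against that of most genes of its length. Among 4205 genes of 4000 to 8000 bases, 26.5% were called higher and 5.35% lower in homozygous hearts, and 25.7% higher and 5.99% lower in heterozygous hearts. With the length offset Obsl1 was called lower in both genotypes, with fold changes of -0.59 (adjusted p = 0.0114) in homozygous and -0.88 (adjusted p = 0.00171) in heterozygous hearts. The 3-property offset moved it the other way. It left -0.12 (adjusted p = 0.558) in homozygous and -0.38 (adjusted p = 0.0696) in heterozygous hearts, neither called. The cause of the opposite shifts was not tested.

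The list of obscurin-like 1 partners held 6 tested genes. It covers the 3M complex and its ubiquitin ligase, and also Kctd6, which belongs to a different, cullin-3 ligase. None of the 6 was higher. In homozygous hearts 2 were lower (33.3%, beside 12.4% of all tested genes) and in heterozygous hearts 3 (50%, beside 12.8%), with median fold changes of -0.18 and -0.22, beside -0.03 over all tested genes in both comparisons. Cul7, the cullin scaffold of the complex, had 42.8, 41.9 and 43.2 CPM in homozygous hearts, 37.8, 33.7 and 34.2 CPM in heterozygous hearts, and 51.0 and 55.7 CPM in wild-type hearts. It was, like Obsl1, called in heterozygous hearts (-0.60, SE 0.11, adjusted p = 0.00409) and not in homozygous hearts (-0.32, SE 0.11, adjusted p = 0.0573). Rbx1, the RING subunit of cullin ligases, was lower in both genotypes (-0.49, adjusted p = 0.0214, and -0.42, adjusted p = 0.0378). Kctd6, a cullin-3 adaptor that binds obscurin-like 1, was also lower in both (-0.48, adjusted p = 0.0362, and -0.50, adjusted p = 0.0318). With the 3-property offset it was the 1 gene of the list called lower in homozygous hearts. Ccdc8, the third partner of the complex, was low at 7.66 ± 1.18 CPM in homozygous and 6.13 ± 0.763 CPM in heterozygous hearts (SD, n = 3 each), against 6.10 ± 3.53 CPM in wild-type hearts (SD, n = 2), and did not pass (fold changes of 0.33 and 0.01). Cul7 in heterozygous hearts was the 1 call left without wild type 2, and with the 3-property offset 1 was lower in homozygous and 2 in heterozygous hearts.

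Myom1 encodes myomesin 1, the main crosslinker of myosin filaments at the M-band and the binding site of the titin end. The gene (ENSMUSG00000024049.15) lies at chr17:71002633-71126856 on the plus strand, with a longest coding transcript of 5648 bases in 38 exons. Myom1 had 2248, 1604 and 1915 CPM in homozygous hearts, 1970, 1639 and 1790 CPM in heterozygous hearts, and 1473 and 1436 CPM in wild-type hearts. All 6 deletion libraries lay above both wild-type libraries, as did those of 22.1% of tested genes. The wild-type libraries were close together, but the homozygous libraries were widely spread. The means were 1922 ± 322 CPM in homozygous hearts, 1800 ± 166 CPM in heterozygous hearts (SD, n = 3 each) and 1454 ± 26.3 CPM in wild-type hearts (SD, n = 2). The fold change was 0.40 (SE 0.17, 95% interval 0.04 to 0.77, adjusted p = 0.0953) in homozygous and 0.31 (SE 0.17, -0.06 to 0.67, adjusted p = 0.193) in heterozygous hearts. Neither was called, although DESeq2 called the homozygous difference (0.41, adjusted p = 0.0431). The 3-property offset left 0.23 (adjusted p = 0.353) and 0.17 (adjusted p = 0.513). The gene Myl12a on the opposite strand shares 1.98% of the merged Myom1 exons.

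Myom2 encodes myomesin 2, also named M-protein, a second M-band crosslinker. The gene (ENSMUSG00000031461.4) lies at chr8:15057653-15133541 on the plus strand, with a longest coding transcript of 5075 bases in 37 exons. Myom2 had 1437, 1110 and 1750 CPM in homozygous hearts, 1178, 1436 and 1222 CPM in heterozygous hearts, and 1008 and 1633 CPM in wild-type hearts. The groups overlapped: wild type 1 was the lowest library and wild type 2 was below homozygous 3 alone, and the 2 wild-type libraries differed by 0.70 on the log2 scale (wild type 2 minus wild type 1). The fold change was 0.12 (SE 0.23, 95% interval -0.40 to 0.63, adjusted p = 0.746) in homozygous and -0.05 (SE 0.23, -0.56 to 0.47, adjusted p = 0.901) in heterozygous hearts. Changes inside these intervals were not detectable here, and the sign turned with the wild-type library left out. Without wild type 2 the fold changes were 0.54 (adjusted p = 0.156) and 0.37 (adjusted p = 0.317), and without wild type 1 they were -0.18 (adjusted p = 0.552) and -0.35 (adjusted p = 0.242).

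Myom3, the myomesin known mainly from skeletal muscle, was expressed at a low level. The gene (ENSMUSG00000037139.15) lies at chr4:135759715-135815564 on the plus strand, with a longest coding transcript of 5575 bases in 37 exons. Myom3 had 5.62, 4.46 and 6.20 CPM in homozygous hearts, 5.72, 4.04 and 2.77 CPM in heterozygous hearts, and 4.13 and 4.33 CPM in wild-type hearts. These levels rest on 81 to 256 reads per library, and the lowest, heterozygous 3, has a 95% Poisson interval of 64.3 to 101 reads for counting error alone. The groups overlapped, with 4 deletion libraries above and 2 below both wild-type libraries. The fold change was 0.36 (SE 0.32, 95% interval -0.35 to 1.06, adjusted p = 0.436) in homozygous and -0.02 (SE 0.32, -0.73 to 0.68, adjusted p = 0.964) in heterozygous hearts.

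Per kb of merged exons, the order of mean levels in homozygous and heterozygous hearts was Myom1, Myom2, Ttn, Obsl1 and Myom3. Myom1 stood at 184 ± 30.8, 172 ± 15.8 and 139 ± 2.51 CPM per kb in homozygous (n = 3), heterozygous (n = 3) and wild-type (n = 2) hearts (SD). Myom2 stood at 162 ± 36.1, 144 ± 15.6 and 149 ± 49.9 CPM per kb in the same groups. The order of these neighbours turned between libraries of each genotype. Myom2 was above Myom1 in homozygous 3 (198 against 183 CPM per kb), heterozygous 2 (162 against 157) and wild type 2 (184 against 137). Myom1 was above Myom2 in all other libraries. Ttn followed at 85.6 ± 5.33, 81.7 ± 3.12 and 48.2 ± 5.20 CPM per kb, and Obsl1 at 21.7 ± 1.46, 17.5 ± 2.40 and 26.1 ± 3.38 CPM per kb. Titin was thus among the most counted transcripts but less frequent per unit length than myomesin 1 and myomesin 2. Myom3 was at 0.899 ± 0.146, 0.692 ± 0.245 and 0.700 ± 0.0242 CPM per kb.

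Ratios of these genes within a library need no scaling between libraries, but they do not remove the trend with transcript length. The length offset took 0.85 out of the homozygous fold change of Ttn and 0.32 out of that of Myom1. In heterozygous hearts it took out 1.16 and 0.30. The part of transcript length in the Ttn to Myom1 ratio was not tested. The log2 ratio of Ttn to Myom1 counts was 2.05, 2.67 and 2.45 in homozygous hearts, 2.22, 2.55 and 2.46 in heterozygous hearts, and 1.82 and 2.08 in wild-type hearts. The lowest deletion library, homozygous 1, overlapped wild type 2. The 6 deletion libraries exceeded wild type by 0.45 on average (two-sided exact permutation test over libraries, p = 0.0714, where 28 arrangements allow no p below 0.0357). The log2 ratio of Myom2 to Myom1, which compares the 2 M-band crosslinkers, was -0.65, -0.53 and -0.13 in homozygous hearts, -0.74, -0.19 and -0.55 in heterozygous hearts, and -0.55 and 0.19 in wild-type hearts. Wild type 1 lay inside the range of the deletion libraries, and the mean difference of -0.28 did not pass (exact permutation p = 0.321).

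A second deleted allele made no called difference in any of the 5 genes. Over all genes, 0% were called in homozygous against heterozygous hearts by edgeR, with 411 genes below 0.05 before adjustment, while DESeq2 called 2 genes and limma-voom 0. The difference for Ttn was 0.07 (95% interval -0.21 to 0.34) and for Myom1 0.10 (-0.23 to 0.42). It was 0.16 (-0.30 to 0.63) for Myom2 and 0.38 (-0.24 to 1.0) for Myom3. Obsl1 was higher in homozygous than in heterozygous hearts by 0.30 (0.01 to 0.60), which did not survive adjustment over all genes (adjusted p = 0.9996), though its interval excludes 0. The offsets for gene properties moved the Ttn difference by more than 1.5 times. It was 0.38 (0.01 to 0.75) with the length offset and 0.32 (0.08 to 0.57) with the 3-property offset, or 0.43 and 0.39 with these fitted without Ttn. These intervals also exclude 0, and no adjusted p passed (0.99979 or above in these 4 fits). Both comparisons against wild type share the same 2 wild-type libraries, so their like values are not independent of each other.

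Partners of titin and of the M-band were read from the same fit in lists. The lists hold binding partners and other related genes, and not every member is known to bind titin. The counts of each list stand beside the shares over all tested genes, 15.3% higher and 12.4% lower in homozygous hearts and 15.2% higher and 12.8% lower in heterozygous hearts. Among 11 Z-disc genes listed with titin, 3 were higher (27.3%) and 1 lower (9.09%) in homozygous hearts. In heterozygous hearts 3 were higher and 2 lower (18.2%), namely Tcap and Actn2, the gene whose enhancer was deleted. The median fold change was 0.10 in both, against -0.03 over all tested genes. Nebl, the gene of nebulette, which lines thin filaments at the Z-disc, had 213, 256 and 260 CPM in homozygous hearts, 243, 283 and 239 CPM in heterozygous hearts, and 33.0 and 19.1 CPM in wild-type hearts. Its groups were far apart, with fold changes of 3.22 (SE 0.24, adjusted p = 4.97e-05) and 3.29 (SE 0.24, adjusted p = 4.98e-05), and it was still called with the 3-property offset (2.46 and 2.51). Fhod3, a formin of sarcomeric actin, rose by 1.04 (adjusted p = 0.00261) and 0.83 (adjusted p = 0.00679). Nexn, the Z-disc actin binder nexilin, rose by 0.71 (adjusted p = 0.00431) and 0.66 (adjusted p = 0.00546). Tcap, the telethonin that caps the Z-disc end of titin, was lower (-1.22, adjusted p = 0.0172, and -1.10, adjusted p = 0.0257), but its wild-type libraries were at 2588 and 4477 CPM. Without wild type 2 its fold changes were -0.74 and -0.63. With the 3-property offset 3 of the listed Z-disc genes were higher in homozygous and 2 in heterozygous hearts, and 0 were lower.

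The 14 partners and chaperones of the titin I-band spring had 1 member higher (7.14%) and 4 lower (28.6%) in each deletion genotype, with medians of -0.38 in homozygous and -0.24 in heterozygous hearts. Cryab, the alpha B-crystallin that binds the spring, was at 1007 ± 72.4 CPM in homozygous and 1092 ± 153 CPM in heterozygous hearts (SD, n = 3 each), against 1832 ± 250 CPM in wild-type hearts (SD, n = 2). It fell, with fold changes of -0.86 (adjusted p = 0.00368) and -0.75 (adjusted p = 0.00675). Bag3, a co-chaperone of sarcomere protein turnover, fell too (-0.60, adjusted p = 0.0221, and -0.61, adjusted p = 0.0204). The small heat-shock gene Hspb1 fell in homozygous hearts (-0.66, adjusted p = 0.027) and had a fold change of -0.52 (adjusted p = 0.0677) in heterozygous hearts. Dnajb6, also a co-chaperone, rose by 0.63 (adjusted p = 0.00527) and 0.55 (adjusted p = 0.00899). With the 3-property offset none of the 14 was called lower, and 3 were called higher in each genotype (Fhl2, Ankrd23 and Dnajb6). Without wild type 2, 1 was called lower in homozygous hearts (Cryab) and 2 in heterozygous hearts (Cryab and Smyd2).

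Of 9 tested A-band partners, the myosin chains and myosin-binding proteins along which titin runs, none was higher and 4 were lower (44.4%) in each genotype, with medians of -0.76 in homozygous and -0.91 in heterozygous hearts. Myh7b, a slow-type myosin heavy chain, was at 308, 319 and 380 CPM in homozygous hearts, 207, 306 and 282 CPM in heterozygous hearts, and 630 and 509 CPM in wild-type hearts. It fell, with fold changes of -0.76 (adjusted p = 0.012) and -1.10 (adjusted p = 0.0021). Mybpc2, the fast skeletal form of myosin-binding protein C, fell too (-0.95, adjusted p = 0.00379, and -1.20, adjusted p = 0.00116). It was low, at 32.8 ± 6.14 CPM in homozygous and 27.6 ± 4.61 CPM in heterozygous hearts (SD, n = 3 each), against 63.3 ± 2.79 CPM in wild-type hearts (SD, n = 2). Myl2, the ventricular regulatory light chain, was lower (-1.06, adjusted p = 0.0133, and -0.91, adjusted p = 0.0247), but its level was 9128 CPM in wild type 1 and 19551 CPM in wild type 2. Without wild type 2 its fold changes were -0.37 (adjusted p = 0.139) and -0.23 (adjusted p = 0.367), and Mybpc2 and Myh7b were the 2 members still called in each genotype. Myh7, the beta-myosin heavy chain, fell in homozygous hearts (-0.68, adjusted p = 0.0228) and had a fold change of -0.41 (adjusted p = 0.135) in heterozygous hearts. The 3-property offset left 3 A-band partners lower in homozygous and 2 in heterozygous hearts.

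Of 15 M-band partners and genes of titin kinase signalling, 6 were higher (40%) and 1 lower (6.67%) in homozygous hearts. In heterozygous hearts 7 were higher (46.7%) and 2 lower (13.3%), with medians of 0.11 and -0.01. Cmya5, whose product myospryn binds titin, had 966, 866 and 957 CPM in homozygous hearts, 693, 908 and 867 CPM in heterozygous hearts, and 446 and 406 CPM in wild-type hearts. Its 6 deletion libraries lay above both wild-type libraries, as did those of 22.1% of tested genes. It rose by 1.13 (SE 0.16, adjusted p = 0.000931) and 0.95 (SE 0.15, adjusted p = 0.00194). The myosin chaperone gene Hsp90aa1 rose by 0.60 (adjusted p = 0.00615) and 1.05 (adjusted p = 0.000451), and Smyd1, a muscle methyltransferase that works with it, by 0.75 (adjusted p = 0.00651) and 0.70 (adjusted p = 0.00833). Sptbn1, a spectrin, rose by 0.64 (adjusted p = 0.00861) and 0.65 (adjusted p = 0.00782). Of the muscle ubiquitin ligases tied to titin, Trim63 and Trim55 were called higher and Trim54 lower in both genotypes. Without wild type 2 neither Trim63 nor Trim54 was called in either genotype. The fall of Trim54 was also lost in both genotypes with the 3-property offset. That offset left Trim63, Trim55, Cmya5 and Smyd1 called higher in both and Hsp90aa1 in heterozygous hearts, while Ank1, not called before, was lower in homozygous hearts. The counts were 5 higher and 0 lower in each genotype without wild type 2.

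A further list held 12 tested genes grouped as relatives by immunoglobulin or fibronectin domains, although Mylk3 is not known to hold them. Of the 12, 3 were higher (25%) in each genotype, Mylk3 among them. In homozygous hearts 1 was lower (8.33%) and in heterozygous hearts 2 (16.7%), with medians of -0.18 and -0.33. Ccdc141, at chr2:77009902-77170636 on the minus strand, is the next gene of the table upstream of Ttn. It had 231, 200 and 264 CPM in homozygous hearts, 231, 280 and 214 CPM in heterozygous hearts, and 101 and 67.0 CPM in wild-type hearts. Like its neighbour it was higher in all 6 deletion libraries than in both wild-type libraries, as were 22.1% of tested genes. Its fold changes were 1.46 (SE 0.21, adjusted p = 0.00104) and 1.52 (SE 0.21, adjusted p = 0.000807). It was still called with the 3-property offset (0.79, adjusted p = 0.0132, and 0.83, adjusted p = 0.0119). Mylk3, the cardiac myosin light chain kinase, rose by 0.82 (adjusted p = 0.00987) and 0.69 (adjusted p = 0.0194), and Palld, the actin-bundling palladin, by 0.59 (adjusted p = 0.0191) and 0.62 (adjusted p = 0.0153). Mybpc2, given above, was the 1 relative lower in both. Leaving out wild type 2, 2 were higher and 1 lower in homozygous hearts, and 1 was higher and 1 lower in heterozygous hearts. The 3-property offset left 2 higher (Ccdc141 and Mylk3) and 2 lower (Mybpc2 and Mylk) in each. Palld was not called with that offset (0.38, adjusted p = 0.0919, and 0.46, adjusted p = 0.051). Its fold changes without wild type 2 were 0.42 and 0.45.

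Of 14 RNA-binding proteins that act on titin splicing, or on muscle splicing at large, 5 were higher (35.7%) and 2 lower (14.3%) in homozygous hearts. In heterozygous hearts 6 were higher (42.9%) and 2 lower (14.3%), with medians of 0.31 and 0.24. Qk, a muscle splicing factor, rose by 1.20 (adjusted p = 0.000777) and 1.16 (adjusted p = 0.00087). Mbnl2 rose by 0.82 (adjusted p = 0.00274) and 0.77 (adjusted p = 0.0034), and Celf1 by 0.67 (adjusted p = 0.00384) and 0.68 (adjusted p = 0.00332). Hnrnpl, a splicing regulator, fell (-0.57, adjusted p = 0.00457, and -0.50, adjusted p = 0.00808). Rbm20, the factor best known for shortening or lengthening cardiac titin, was not called in either genotype. With the 3-property offset Qk alone was still called higher in homozygous hearts and Rbfox2 alone in heterozygous hearts. Both lower calls, Ptbp1 and Hnrnpl, were lost (Hnrnpl -0.26, adjusted p = 0.119, in homozygous hearts), and Khdrbs3 and Srsf1 were called lower in their place in each genotype. Without wild type 2 there were 6 higher and 1 lower in each.

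**Figure D4:**
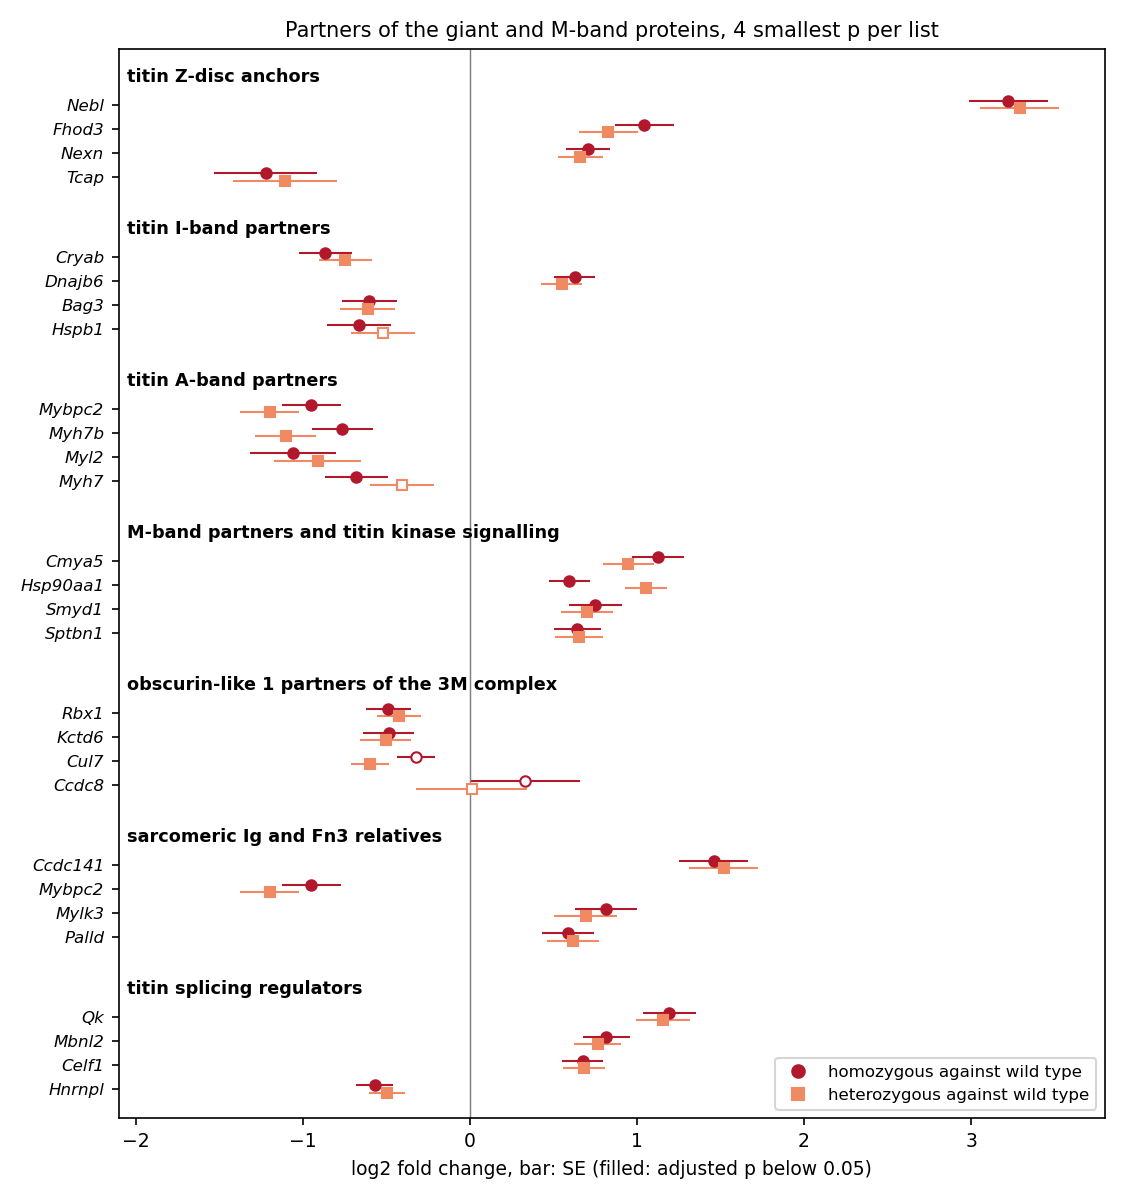
Log2 fold changes against wild type (horizontal axis, bars are the SE) of the 4 members of each partner list with the smallest p in homozygous hearts, homozygous as circles and heterozygous as squares; filled symbols are called. Nebl lies far right at 3.22 and 3.29, the A-band partners lie left of 0, and the M-band partners shown lie right of it.

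The genes most like each of the 5 were found by Pearson correlation of log2 CPM over the 8 libraries, among 9019 genes with a mean of at least 10 CPM. These values are descriptions over libraries that share the genotypes. Ttn was most like Gatsl2 (r = 0.994), Vps13a (0.992) and Senp6 (0.991). Obsl1 was most like Hnrnpd, Dnal4 and Fn3k (0.963 each). Myom1 was most like Zscan29 (0.957), Brpf3 (0.950) and Acacb (0.941), and Myom2 like Optn (0.916) and Manba (0.891). Myom3 was most like Wdr11 (0.977), Dnaja4 (0.915) and Iqcc (0.901). None of the 5 was among the 3 genes nearest to another. Among themselves, Ttn and Myom1 correlated at 0.64, Ttn and Obsl1 at -0.62, Obsl1 and Myom1 at -0.58, and Ttn and Myom2 at 0.24.

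Markers of the cell types in a heart sample moved with genotype to different extents. Over all tested genes, 15.3% were called higher and 12.4% lower in homozygous hearts. In heterozygous hearts these shares were 15.2% and 12.8%. The 12 ventricular cardiomyocyte markers summed to 98223 to 108750 CPM in homozygous, 99609 to 104390 CPM in heterozygous and 106420 to 120190 CPM in wild-type hearts. Of these, 3 were higher and 3 lower in homozygous hearts, and 3 higher and 4 lower in heterozygous hearts. With the 3-property offset 3 were higher and 0 lower in each genotype. Their median fold changes were -0.32 in homozygous and -0.33 in heterozygous hearts. These medians were 0.23 and 0.20 with that offset, and -0.21 and -0.24 without wild type 2. Of 8 tested atrial markers 1 was higher (Pam) and 5 were lower in each genotype, with median fold changes of -1.91 in homozygous and -1.87 in heterozygous hearts. These medians were -1.52 and -1.59 with the 3-property offset and -1.48 and -1.53 without wild type 2. The atrial sum was 870 to 1168, 822 to 1203 and 837 to 1007 CPM in homozygous, heterozygous and wild-type hearts. Smooth muscle markers summed to 480 to 591 CPM in homozygous and 408 to 545 CPM in heterozygous hearts, against 835 to 854 CPM in wild-type hearts, with medians of -1.03 and -1.43. Of the 7, 3 were called lower in homozygous and 5 in heterozygous hearts, and Myocd was called higher in both. The lower calls were 1 and 3 without wild type 2. Endothelial markers summed to 1574 to 1903, 1533 to 2062 and 2257 to 2531 CPM in the same groups, with 3 and 2 of 9 called lower. Skeletal muscle markers, of which Mybpc2 is one, summed to 58.3 to 80.7, 46.9 to 78.8 and 101 to 151 CPM for 13 genes in the same groups, so that every deletion library lay below both wild-type libraries. Of 8 tested, 2 were lower in homozygous hearts and 1 in heterozygous hearts, with medians of -1.03 and -1.16. Myh4 was at 0 in every library, and 6 of the 13 were under 1 CPM on average. Fibroblast markers summed to 1500 to 2038, 1766 to 2116 and 1660 to 2643 CPM, with 1 of 9 called lower in homozygous hearts and 0 in heterozygous hearts. Macrophage markers summed to 320 to 322, 336 to 477 and 367 to 403 CPM. For macrophages, 1 of 8 was called higher and 2 lower in homozygous hearts, and 2 higher and 1 lower in heterozygous hearts. Of 6 red blood cell markers the 4 globin genes were at 0 in every library, and neither of the other 2 was called. The part of cell composition in the differences of the 5 genes and their partners was not tested.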

How the data were processed

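Gene expression was measured in 8 mouse hearts by bulk RNA sequencing. The authors deposited raw read counts, 1 column per library and 1 row per symbol, without normalization. The submitters' processing notes name mm10, featureCounts, Subread, HISAT2, Trimmomatic 0.36 and DESeq2. The sources used here do not give the annotation, the strand setting, the treatment of reads with several matches or the role of each tool. Positions, lengths and GC content came from GENCODE vM21, in which 96.9% of symbols were found.

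Counts were filtered by filterByExpr, scaled by TMM and fitted in 1 robust quasi-likelihood model of edgeR 4.0.16 (R 4.3.3) over all 8 libraries, since wild type has only 2. Tests were two-sided, with Benjamini-Hochberg adjustment over all 15075 genes and a threshold of 0.05. The scripts were tested on simulated counts. Adjusted p-values against wild type can be too small, because the spread comes mostly from the deletion libraries. Ratios were compared by exact permutation. Intervals for single counts cover counting error only.

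Alternatives covered scaling, filtering, tool (DESeq2 1.42.0, limma-voom of limma 3.58.1), robustness, the groups fitted, a replicate block, a term for sex, offsets for gene properties (splines with 4 df, 13899 genes with all 3 properties) and each library left out. The offsets fitted without Ttn were chosen after seeing the data. The 5 genes and all lists were chosen with earlier results of these data known. Named genes were the 5, Actn2, the 4 genes of each list with the smallest p in homozygous against wild-type hearts, and the 3 genes most correlated with each of the 5 over libraries; others are said to be named after their values were seen, or are the calls of a list. Of the genes this rule picks, 1 is not reported here.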

Additional observations from a re-analysis of the deposited data

How the results depend on the processing

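Genes called in homozygous against wild-type hearts (4180) numbered 1985 with the 3-property offset, 1982 with that offset fitted without Ttn, 727 with that offset and wild type 2 left out, and 2135 to 5717 with each library left out. In heterozygous against wild-type hearts (4219) they numbered 1876, 1884, 675 and 2359 to 5634, and 2668 with only the groups compared. Of the large drops, those by leaving out 1 library came without wild type 2 and, for homozygous hearts, without homozygous 3 (2564). In homozygous against heterozygous hearts (0) there were 2 with no filter, 2 with DESeq2, 1 with the 3-property offset and wild type 2 left out, and 0 to 1 with each library left out. Members of the 5 called in homozygous hearts (1, Ttn) were 2 with DESeq2 and 0 under each 3-property offset; under the length offset the 1 was Obsl1. In heterozygous hearts (2, Ttn and Obsl1) 1 was called with only the groups compared and under each length offset, 0 under each 3-property offset, and 1 to 2 with each library left out.

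Ttn turned to -0.0193 in homozygous hearts under the length offset and to -0.0225 with that offset fitted without Ttn. In heterozygous hearts it turned to -0.40 and -0.45 under the length offset (with and without Ttn), -0.14 and -0.17 under the 3-property offset, and -0.13 with wild type 2 also left out. Myom2 in homozygous hearts turned to -0.16 under both length offsets and ranged from -0.18 to 0.54 with each library left out; in heterozygous hearts it ranged from -0.35 to 0.37 and was 0.35 with the 3-property offset and wild type 2 left out. Myom3 in heterozygous hearts turned to 0.0021 with total counts, 0.0029 with abundant genes left out of TMM, 0.0058 with the replicate block and 0.10 with the 3-property offset and wild type 2 left out, and ranged from -0.28 to 0.21 with each library left out. In homozygous against heterozygous hearts, leaving out each library gave -0.0326 to 0.21 for Myom1 and -0.0054 to 0.31 for Myom2. The ratio of Myom2 to Myom1 ranged from -0.65 to 0.0817, and that of Ttn to Myom1 from 0.32 to 0.58, with each library left out. The Ttn ratio was 0.52 and reached the smallest p that design allows, 0.0476 (exact permutation), without homozygous 1. The cause of these changes was not tested.

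The replicate numbers were not treated as pairs, since same-numbered libraries correlated at -0.02 to 0.18 in their deviations. With the replicate block, edgeR called 3328 genes in homozygous and 3376 in heterozygous hearts. Ttn was then at 0.80 (adjusted p = 0.0119) and 0.74 (adjusted p = 0.0151), and the calls of the 5 genes did not change. Myom3 rests on 81 to 256 reads per library, and every comparison with wild type rests on 2 wild-type libraries.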
